A study of Mus musculus with 2 samples.

Results

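Eicosanoids are short-lived lipid signals made from arachidonic acid. The 10 genes described here encode main enzymes of their synthesis and, in the case of Alox5ap, a partner protein of 5-lipoxygenase. Pla2g2a and Pla2g4a free the fatty acid. The cyclooxygenases Ptgs1 and Ptgs2 form a branch with the terminal synthases Ptges, Hpgds and Tbxas1. Alox5, Alox5ap and Lta4h belong to the 5-lipoxygenase branch. The genes were chosen by symbol from the deposited table of all genes. Each symbol had 1 row, so 10 of the 26607 rows of the table are members. All 10 were among the 12369 rows with a mean of at least 1 FPKM (fragments per kilobase, corrected for the size of the library) over both libraries, the rows compared here. The series holds 2 RNA-seq libraries of primary microglia, which are macrophages that live in the brain and spinal cord. One is labelled as transfected with a Per2-overexpression vector and the other with a control vector, and n = 1 in each group. The 2 libraries are named below by these labels, as Per2-vector-labelled and control-labelled. Strain, age, dose of the vectors, time after transfection and the number of animals pooled are not stated in the labels. Per2 encodes a repressor of the circadian clock, and the series title ties it to ferroptosis, a form of cell death driven by peroxidation of membrane lipids, after spinal cord injury.

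Arachidonic acid is stored in membrane phospholipids and is cut out of them by phospholipases A2. Cyclooxygenases turn the free acid into prostaglandin H2, from which each terminal synthase makes its own product: prostaglandin E2, prostaglandin D2 or thromboxane A2. In the other branch, 5-lipoxygenase works with its membrane partner FLAP, the product of Alox5ap, to make leukotriene A4, which leukotriene A4 hydrolase converts to the neutrophil attractant leukotriene B4. Microglia are known to carry enzymes of both branches and to release prostaglandins when they are activated.

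The Per2 transcript went against the labels. It stood at 0.927 FPKM in the Per2-vector-labelled library, against 6.90 FPKM in the control-labelled library, so each direction below goes by the label on the library, and no gain of Per2 was measured. Whether the labels or the columns of the 2 libraries were exchanged cannot be told from the table, and every direction, rank and share of calls below would turn round if they were. With 1 library per group there is no replicate check, no value has an SD and no p-value was computed. In place of a test, a gene is called where the log2 ratio of FPKM + 1, Per2-vector label over control label, is at least 1 or at most -1. By this rule 2.19% of all genes compared were called higher (2-fold or more) and 5.93% were called lower, and the median log2 ratio of the genes compared was -0.18, with 64.1% of them below 0. The depth of the libraries is unknown. The ratios ran with transcript length (Spearman's rho of -0.50 across 10139 genes, which are not independent replicates, with the length of the mouse gene of the same symbol), so each ratio below is also given with that trend removed where this changes the reading. Of 15 markers of microglia and macrophages, 14 were measured and none was listed at 0, among them Aif1, which encodes IBA1, at 491 FPKM in the Per2-vector-labelled library and 579 FPKM in the control-labelled library. P2ry12, a defining microglial receptor, was under the filter at 0.0802 FPKM in the Per2-vector-labelled library and 0.650 FPKM in the control-labelled library. Markers of other cells were present as well. Fibroblast, meningeal and pericyte markers summed to 8507 FPKM (Per2-vector label) and 4462 FPKM (control label). Microglia and macrophage markers summed to 3084 FPKM (Per2-vector label) and 3737 FPKM (control label). Levels below are those of bulk RNA and were not assigned to a cell type.

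Of the 10 eicosanoid synthesis genes, 1 was called higher in the Per2-vector-labelled library (Pla2g2a), 1 was called lower (Alox5ap), and 8 lay between. These called genes thus had the largest ratios in size, one at the release of arachidonic acid and one in the leukotriene branch, and the cyclooxygenases differed by less than 2-fold. The median log2 ratio of the 10 genes was -0.33, beside -0.18 for all genes compared, and 2 genes had a ratio above 0 and 8 below. The balance of directions moved with the scale: 4 genes lay above 0 when the ratios were centred on the median of all genes (median of the 10, -0.14), and 5 when the length trend was removed (-0.05). The background moved as well, from 2.19% of all genes compared called higher and 5.93% lower on the deposited scale. After rescaling to TPM (each library's values divided by their sum, so that both libraries have the same total) 1.53% were called higher and 11.3% lower. The shares were 4.21% and 3.57% after centring, and 1.36% and 2.40% of the 10139 genes with a length once the length trend was removed. Pla2g2a was called higher and Alox5ap lower on each of these scales.

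**Figure D1:**
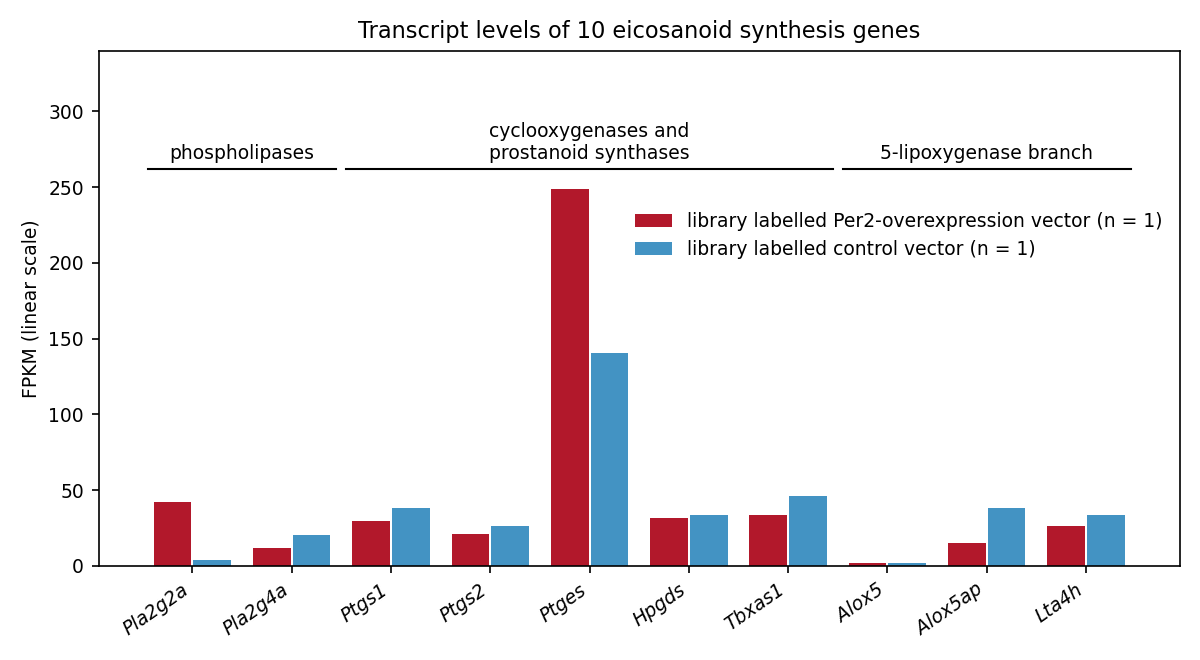
FPKM of the 10 genes (linear axis, starting at 0) in the library labelled Per2-overexpression vector (red, left bar of each pair) and the library labelled control vector (blue, right bar), 1 library each and hence no error bars. Ptges is the tallest pair, with 249 and 141 FPKM, and Pla2g2a has 42.2 and 3.73 FPKM, while Alox5 is barely visible with 1.62 and 1.93 FPKM, the Per2-vector-labelled library first in each pair.

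The phospholipases went opposite ways. Pla2g2a (ENSRNOG00000016945) encodes the secreted group IIA phospholipase A2, an enzyme that is released in inflammation and also attacks bacterial membranes. It had 42.2 FPKM in the Per2-vector-labelled library, against 3.73 FPKM in the control-labelled library, a log2 ratio of 3.19. Its deposited values differed 11.3-fold, and its log2 ratio was the 3rd highest of the 12369 rows. Pla2g4a (ENSRNOG00000002657) encodes cytosolic phospholipase A2, the calcium-dependent enzyme that prefers arachidonate-bearing phospholipids and feeds both cyclooxygenase and 5-lipoxygenase. It had 11.97 FPKM in the Per2-vector-labelled library and 20.3 FPKM in the control-labelled library, a log2 ratio of -0.72 that was not called. Which of the 2 was the more abundant therefore turned over between the libraries. There were 3.52 FPKM of Pla2g2a for each FPKM of Pla2g4a in the Per2-vector-labelled library, against 0.184 in the control-labelled library. A ratio of this kind is formed within a library, so the scaling of the libraries cancels out of it. The length trend does not cancel, since the mouse transcript of Pla2g2a (788 nt) is shorter than that of Pla2g4a (2856 nt). With that trend removed, the log2 ratio of Pla2g2a was 2.67 and that of Pla2g4a was -0.50.

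Few other short transcripts had a ratio as high as Pla2g2a. In the length decile with the shortest transcripts, whose median log2 ratio was 0.43, 1 of the 1013 other genes had a log2 ratio as high as that of Pla2g2a. In the mouse assembly GRCm38.p6, RefSeq places Pla2g2a inside the span of Pla2g5, another secreted phospholipase, and lists it as a transcribed pseudogene. The sample labels name mouse, whereas the gene identifiers and the build in the submitters' processing notes are rat, and which species the RNA came from could not be settled. Whether Pla2g2a and Pla2g5 overlap in the rat build was not checked, since the reference at hand is mouse. The protocol names no step that keeps the strand, so reads of any overlapping genes could not be separated by strand. Pla2g5 itself, named after its value was seen, had 0.317 FPKM in the Per2-vector-labelled library and 0.128 FPKM in the control-labelled library. Markers of other cell types differed between the libraries, and their part in the value of Pla2g2a was not tested. The 12 fibroblast, meningeal and pericyte markers summed to 8507 FPKM in the Per2-vector-labelled library and 4462 FPKM in the control-labelled library, a gap that came mostly from Mgp, with 5049 FPKM in the Per2-vector-labelled library and 1052 FPKM in the control-labelled library. Without Mgp the sums were 3459 FPKM (Per2-vector label) and 3410 FPKM (control label), and of this list only Rgs5 was under the filter. Of the 11 measured, 4 lay above a log2 ratio of 0 and 7 below, with a median of -0.17 and Mgp the single call. With the length trend removed, 7 of the 11 lay above 0 and the median was 0.10. The 10 astrocyte markers summed to 196 FPKM (Per2-vector label) and 437 FPKM (control label). The 9 measured all lay below a log2 ratio of 0, and 5 were called lower, beside 5.93% of all genes compared. With the length trend removed, 2 of the 9 were called lower, beside 2.4% of the genes with a length, and 1 lay above 0.

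Neither cyclooxygenase was called. Ptgs1 (ENSRNOG00000007415), the cyclooxygenase that most cells make without stimulation, had 29.3 FPKM in the Per2-vector-labelled library and 38.1 FPKM in the control-labelled library. Ptgs2 (ENSRNOG00000002525), the inducible cyclooxygenase, whose transcript is also widely used as a marker of ferroptosis, had 20.9 FPKM in the Per2-vector-labelled library and 26.3 FPKM in the control-labelled library. The log2 ratios were -0.37 for Ptgs1 and -0.32 for Ptgs2, so both stood somewhat lower under the Per2-vector label and kept nearly the same balance. Ptgs2 made up 41.7% of the summed cyclooxygenase FPKM in the Per2-vector-labelled library and 40.9% in the control-labelled library. The sign for Ptgs2 depended on the scale, since its log2 ratio was 0.06 with the length trend removed, and that for Ptgs1 was -0.15. In the mouse assembly no protein-coding gene lies between Pla2g4a and Ptgs2, and their log2 ratios differed in size, with -0.72 for Pla2g4a and -0.32 for Ptgs2.

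Among the terminal synthases, Ptges alone had a ratio above 0 on the deposited scale. Ptges (ENSRNOG00000006320) encodes the inducible microsomal prostaglandin E synthase, which commonly works with the inducible cyclooxygenase. It had 249 FPKM in the Per2-vector-labelled library, against 141 FPKM in the control-labelled library, a log2 ratio of 0.82. It was the most abundant of the 10 transcripts in both libraries, at rank 468 of the 12369 rows by level in the Per2-vector-labelled library and rank 714 in the control-labelled library. Its ratio fell short of the 2-fold rule on the deposited scale and after rescaling to TPM (0.62), and it reached the rule when the ratios were centred on the median of all genes (1.003) or cleared of the length trend (1.14). In the length decile that holds Ptges (3518 to 4131 nt), the median log2 ratio was -0.35, none of the 1012 genes was called higher, and 9 of the 1011 others had a ratio as high as that of Ptges.

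Hpgds (ENSRNOG00000006583), the haematopoietic prostaglandin D synthase, which in brain is chiefly a microglial enzyme, had 31.3 FPKM in the Per2-vector-labelled library and 33.2 FPKM in the control-labelled library. Its log2 ratio of -0.09 turned to 0.10 after centring and to 0.21 with the length trend removed, so it has no direction here. Tbxas1 (ENSRNOG00000007918), thromboxane A synthase, had 33.5 FPKM (Per2-vector label) and 46.2 FPKM (control label), a log2 ratio of -0.45 that was below 0 on every scale tried. The make-up of the terminal synthases leaned further to Ptges under the Per2-vector label. Ptges held 79.4% of the FPKM summed over Ptges, Hpgds and Tbxas1 in the Per2-vector-labelled library, against 63.9% in the control-labelled library. The share of Tbxas1 was 10.7% (Per2-vector label) against 21.0% (control label), and that of Hpgds was 9.96% (Per2-vector label) against 15.1% (control label). For each FPKM of Ptgs2 there were 11.9 FPKM of Ptges in the Per2-vector-labelled library, against 5.34 in the control-labelled library. That ratio differed 2.23-fold between the libraries, or 1.16 in log2, on FPKM without the added 1. On FPKM + 1 with the length trend removed, the log2 ratios of Ptges and Ptgs2 lay 1.08 apart.

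**Figure D2:**
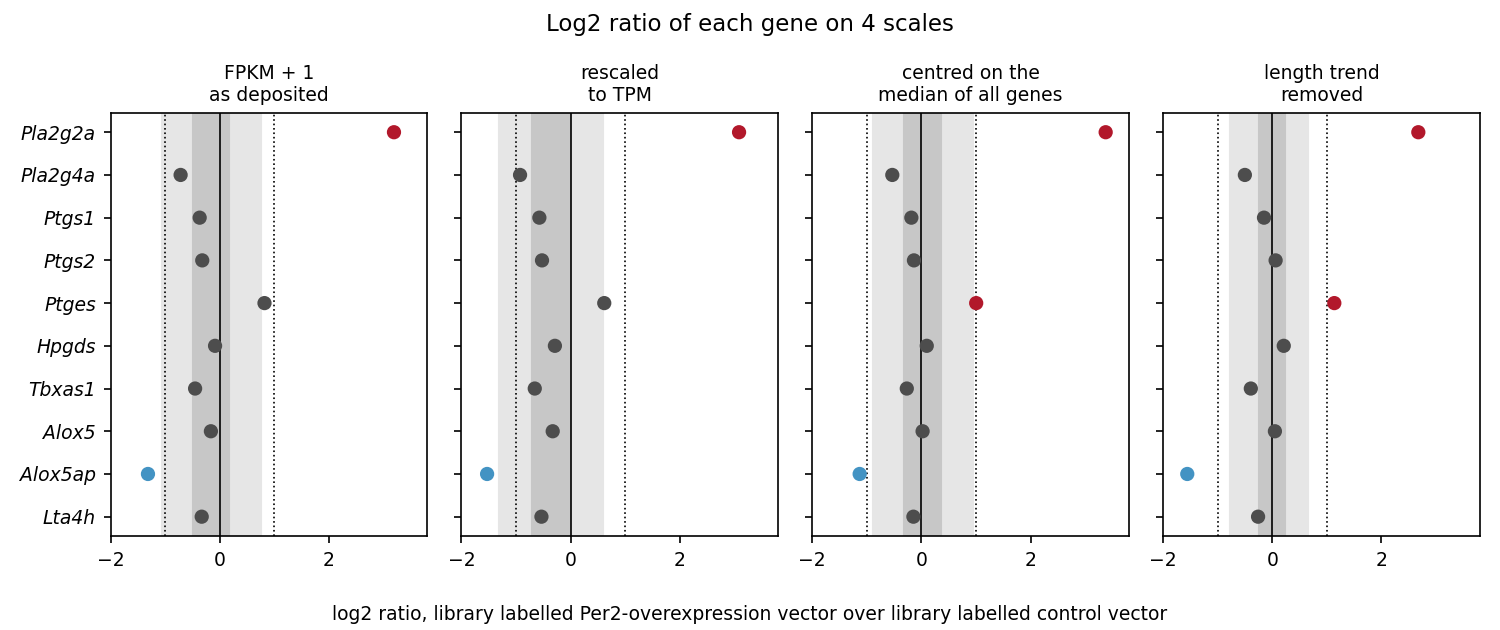
Log2 ratio (x axis, Per2-vector label over control label) of each gene (rows) on 4 scales: deposited FPKM + 1, rescaled to TPM, centred on the median of all genes compared, and with the trend with transcript length removed. Grey bands hold the middle 50% (dark) and 90% (light) of all genes on that scale, dotted lines mark 2-fold, and red and blue points are genes called higher and lower; Pla2g2a and Alox5ap are called on all 4 scales, and Ptges on the last 2.

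In the 5-lipoxygenase branch the gene of the partner protein was called and those of the enzymes were not. Alox5ap (ENSRNOG00000000907), whose product FLAP presents arachidonic acid to 5-lipoxygenase, had 14.8 FPKM in the Per2-vector-labelled library, against 38.3 FPKM in the control-labelled library, a log2 ratio of -1.32. Its ratio was number 297 of the 12369 rows, counted from the lowest. Alox5 (ENSRNOG00000012972), 5-lipoxygenase itself, was the least abundant of the 10 transcripts in both libraries, with 1.62 FPKM (Per2-vector label) and 1.93 FPKM (control label). Its log2 ratio of -0.16 was 0.02 after centring and 0.05 with the length trend removed, so it too has no direction here. Lta4h (ENSRNOG00000004494), leukotriene A4 hydrolase, an enzyme found in most tissues, had 26.4 FPKM (Per2-vector label) and 33.5 FPKM (control label), a log2 ratio of -0.33 that was not called.

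Alox5ap was the less abundant of Alox5ap and Lta4h in the Per2-vector-labelled library, and in the control-labelled library the levels lay too close to rank. There were 0.560 FPKM of Alox5ap for each FPKM of Lta4h in the Per2-vector-labelled library, against 1.14 in the control-labelled library. The ratio of Lta4h to Alox5 differed little, with 16.3 in the Per2-vector-labelled library and 17.4 in the control-labelled library. Alox5ap went against the trend with length: it is in the length decile with the shortest transcripts (1251 nt in mouse), of which 6.41% were called higher and 1.38% lower, and 12 of the 1013 others had a ratio as low. Its log2 ratio was -1.56 with the trend removed. Alox5ap is made mainly by myeloid cells. The 15 microglia and macrophage markers summed to 3084 FPKM in the Per2-vector-labelled library and 3737 FPKM in the control-labelled library. Of the 14 measured, 5 were called lower and 0 higher, beside 5.93% and 2.19% of all genes compared. The median log2 ratio of the 14 was -0.59. Without Fcer1g, the most abundant of them, the sums were 1836 FPKM (Per2-vector label) and 2551 FPKM (control label). The complement genes C1qa (log2 ratio -1.83), C1qb (-2.33) and C1qc (-1.86) and the receptor gene Gpr34 (-2.20) had the lowest ratios of the list. Tmem119 (0.34) and Fcer1g (0.07) lay above 0. With the length trend removed, 4 of the 14 markers were called lower, beside 2.4% of the genes with a length, and 2 lay above 0. Hpgds and Tbxas1, also typical of myeloid cells, were not called on the deposited scale, nor were 9 of the 14 measured markers. In bulk RNA, fewer cells of a type and less of a transcript per cell cannot be told apart, and the part of the marker shift in the value of Alox5ap was not tested.

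**Figure D3:**
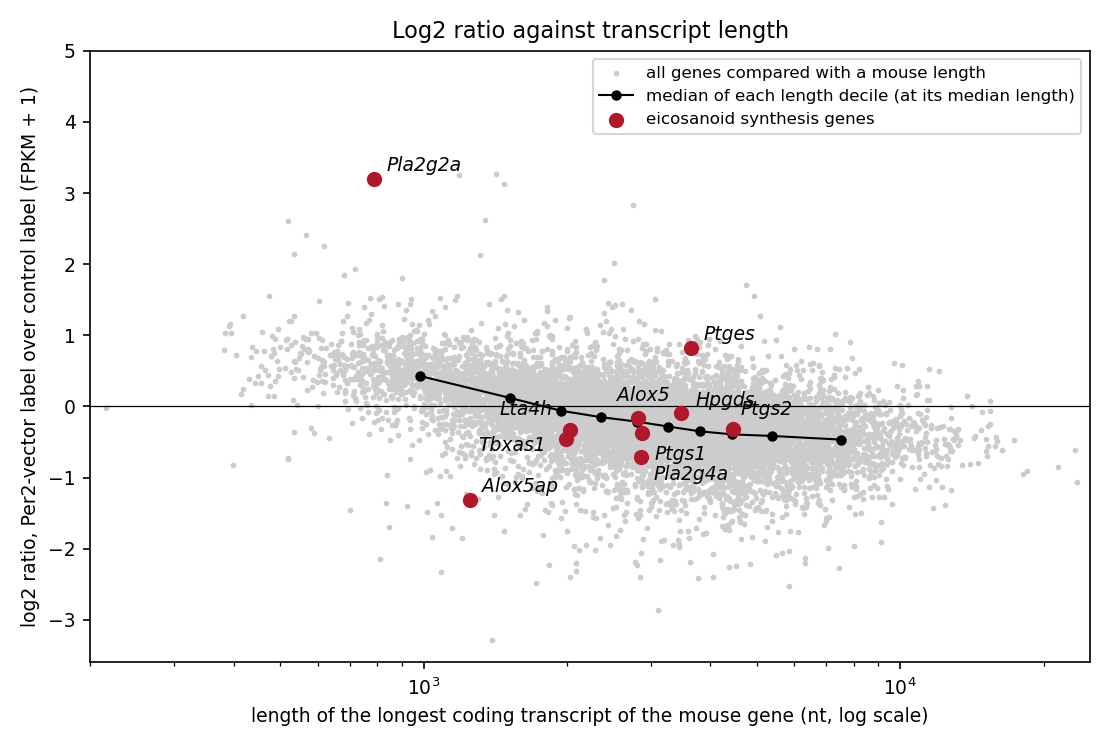
Log2 ratio (y axis, FPKM + 1, Per2-vector label over control label) against the length of the longest coding transcript of the mouse gene of the same symbol (x axis, log scale, nt). Grey points are the 10139 genes with a length, black points the median of each length decile, placed at its median length, and red points the 10 eicosanoid synthesis genes; Pla2g2a lies above and Alox5ap below most other short genes, and Ptges lies above most genes of its length.

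The order of the 10 transcripts by level shows the same differences. In the Per2-vector-labelled library Ptges was followed by Pla2g2a, Tbxas1, Hpgds, Ptgs1, Lta4h, Ptgs2, Alox5ap, Pla2g4a and Alox5. In the control-labelled library it was followed by Tbxas1, Alox5ap, Ptgs1, Lta4h, Hpgds, Ptgs2, Pla2g4a, Pla2g2a and Alox5. Pla2g2a was thus number 2 of the 10 in the Per2-vector-labelled library and number 9 in the control-labelled library, and Alox5ap was number 8 under the Per2-vector label and number 3 under the control label. Neighbours in these orders, such as Alox5ap and Ptgs1 at 38.3 and 38.1 FPKM in the control-labelled library, cannot be ranked without replicates. Summed by branch, the phospholipases reached 54.1 FPKM in the Per2-vector-labelled library and 24.1 FPKM in the control-labelled library. The cyclooxygenases with their synthases reached 364 FPKM (Per2-vector label) and 285 FPKM (control label). The 5-lipoxygenase branch reached 42.8 FPKM (Per2-vector label) and 73.7 FPKM (control label). The direction of the first 2 sums rests on 1 gene each. In the third sum the widest gap was that of Alox5ap, with 14.8 FPKM (Per2-vector label) and 38.3 FPKM (control label). Without Pla2g2a the phospholipase sum is Pla2g4a alone, which was lower under the Per2-vector label. Without Ptges the cyclooxygenase branch reached 115 FPKM (Per2-vector label) and 144 FPKM (control label). Of the 5 genes of the branch, Ptges included, 4 lay below a log2 ratio of 0 on the deposited scale, and 2 with the length trend removed. All 3 genes of the 5-lipoxygenase branch lay below 0 on the deposited scale, and 1 of them, Alox5, lay above it after centring and with the length trend removed.

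Other genes of the pathway were taken from lists that do not overlap the 10 genes. Of 15 further prostaglandin enzymes and transporters, 12 were measured, with 8 above a log2 ratio of 0, 4 below and a median of 0.23. The median stayed above 0 after rescaling to TPM (0.05), after centring (0.42) and with the length trend removed (0.11). The single call was Ptgds, the lipocalin-type prostaglandin D synthase, which in brain is typical of the meninges, choroid plexus and oligodendrocytes. It had 7.75 FPKM in the Per2-vector-labelled library and 1.51 FPKM in the control-labelled library, a log2 ratio of 1.80 and of 1.36 with the length trend removed. Of the prostaglandin D synthases, Ptgds was called higher and Hpgds was not called, and Hpgds was the more abundant in both libraries. The 9 oligodendrocyte lineage markers summed to 20.9 FPKM (Per2-vector label) and 36.3 FPKM (control label), and their part, like that of the meningeal markers above, in the value of Ptgds was not tested. Akr1b1, an aldose reductase that can also make prostaglandin F2 alpha, had 346 FPKM (Per2-vector label) and 243 FPKM (control label), a log2 ratio of 0.51. Its relative Akr1b8 had 1111 FPKM (Per2-vector label) and 836 FPKM (control label), a log2 ratio of 0.41. Ptgr1, which inactivates prostaglandins and leukotriene B4, had 31.6 FPKM (Per2-vector label) and 24.7 FPKM (control label), a log2 ratio of 0.34. None of these 3 reached 2-fold on the deposited scale.

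Of 18 further lipoxygenase and leukotriene genes, 6 were measured, with 3 above 0, 3 below and a median of -0.10 that was 0.08 after centring. Mgst2, a microsomal glutathione transferase that can make leukotriene C4, was the single call on the deposited scale, with 315 FPKM in the Per2-vector-labelled library and 113 FPKM in the control-labelled library and a log2 ratio of 1.47. With the length trend removed it was 0.82 and not called. Dpep1, a dipeptidase that converts leukotriene D4 to E4, had 8.14 FPKM (Per2-vector label) and 4.14 FPKM (control label), a log2 ratio of 0.83. It was 0.95 with the length trend removed, and 1.01, a call, after centring. Its relative Dpep2 lay on the other side of 0, with 6.15 FPKM (Per2-vector label) and 8.93 FPKM (control label), a log2 ratio of -0.47. Alox12, a platelet-type lipoxygenase, had 1.65 FPKM (Per2-vector label) and 2.84 FPKM (control label), a log2 ratio of -0.54. The dedicated leukotriene C4 synthase Ltc4s and the lipoxygenase Alox15, both named after their values were seen, were listed at 0 in both libraries.

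**Figure D4:**
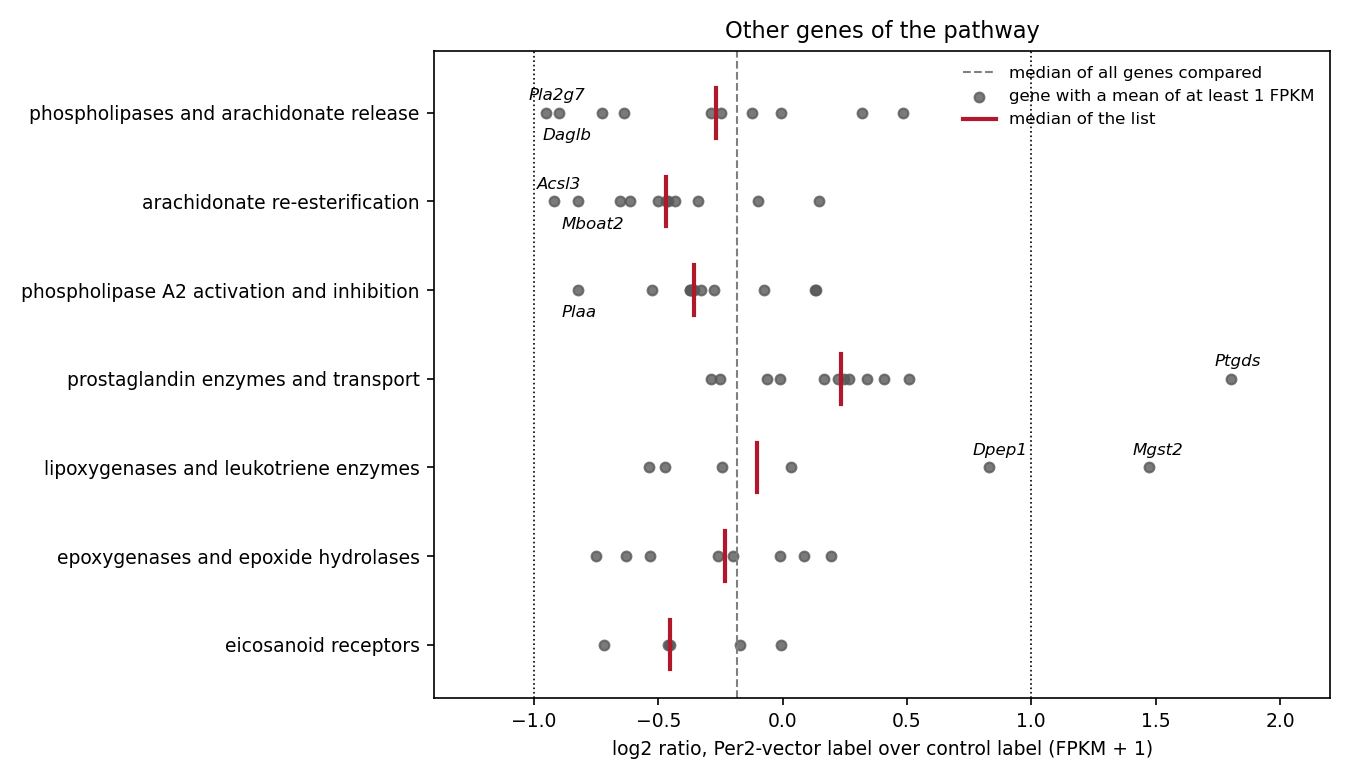
Log2 ratio (x axis, FPKM + 1, Per2-vector label over control label) of the measured genes of 7 further lists (rows), with each list's median (red bar), the median of all genes compared (dashed line, -0.18) and the 2-fold limits (dotted lines). Genes with a ratio of at least 0.8 in size are named; Ptgds and Mgst2 lie above the upper limit.

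Genes that release arachidonic acid or take fatty acids back lay mostly below 0, as did 64.1% of all genes compared. Of 23 further phospholipases and related lipases, 10 were measured and 8 were below 0, with a median of -0.27, and none (0) was called on the deposited scale. Pla2g7, which hydrolyses platelet-activating factor, was the most abundant at 257 FPKM in the Per2-vector-labelled library and 498 FPKM in the control-labelled library, a log2 ratio of -0.95. Daglb, which makes the endocannabinoid 2-arachidonoylglycerol and is a source of arachidonate in microglia, had 20.9 FPKM (Per2-vector label) and 39.9 FPKM (control label), a log2 ratio of -0.90. Both stood just short of a call, which they reached after rescaling to TPM (Pla2g7 at -1.16 and Daglb at -1.11), a scale on which 75.6% of all genes lay below 0. With the length trend removed Pla2g7 was -0.86 and Daglb -0.51. Abhd6, which breaks the same endocannabinoid down, had 5.65 FPKM (Per2-vector label) and 10.003 FPKM (control label), a log2 ratio of -0.73. The lysosomal Pla2g15 had 12.6 FPKM (Per2-vector label) and 20.1 FPKM (control label), a log2 ratio of -0.64. With the length trend removed 6 of the 10 lay above 0 and the list's median was 0.05, so its sign turns with the scale.

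Of 12 genes for the activation of fatty acids and their return to phospholipid, arachidonate among them, 11 were measured and 10 were below 0. The list's median of -0.47 stayed below 0 after centring (-0.28) and with the length trend removed (-0.23). None (0) of the 11 was called on the deposited scale. Lpcat3, the most abundant of the list and named after its values were seen, had 67.3 FPKM (Per2-vector label) and 72.3 FPKM (control label). Its log2 ratio of -0.10 was 0.08 after centring and 0.03 with the length trend removed. Acsl3, which activates fatty acids with coenzyme A, had 10.7 FPKM (Per2-vector label) and 21.2 FPKM (control label), a log2 ratio of -0.92. After rescaling to TPM it was called lower, at -1.13, and with the length trend removed it was -0.57. Acsl4, which prefers arachidonate for the same step, had 26.9 FPKM (Per2-vector label) and 42.8 FPKM (control label), a log2 ratio of -0.65. The acyltransferases Mboat2 and Mboat1, which put fatty acids back into phospholipid, also lay below 0, and Mboat2 was called lower after rescaling to TPM (-1.06) but was -0.37 with the length trend removed. Mboat2 had 1.05 FPKM (Per2-vector label) and 2.63 FPKM (control label), and Mboat1 had 4.73 FPKM (Per2-vector label) and 7.77 FPKM (control label).

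Of 11 genes linked to the activation or restraint of phospholipase A2, 9 were below 0, with a median of -0.36. The list pools both kinds, so its median has no reading for the activity of the enzyme. Plaa, the phospholipase A2 activating protein, had 14.6 FPKM (Per2-vector label) and 26.6 FPKM (control label), a log2 ratio of -0.82 that was -1.03, and called lower, after rescaling to TPM and -0.62 with the length trend removed. Vim, the intermediate filament vimentin, had 1549 FPKM (Per2-vector label) and 2230 FPKM (control label), and Cav1, caveolin 1, had 86.2 FPKM (Per2-vector label) and 112 FPKM (control label). Mapk14 had 19.7 FPKM (Per2-vector label) and 25.8 FPKM (control label), a log2 ratio of -0.37 that was -0.06 with the length trend removed. The list's median was -0.56 after rescaling to TPM, -0.17 after centring and -0.19 with the length trend removed.

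Few receptor genes passed the filter, beside 12369 of all 26607 rows and 6 of the 18 further lipoxygenase and leukotriene genes. Of 18 receptor and related genes, 5 passed it, 8 were under it, 4 were listed at 0 in both libraries and 1 had no row. The 5 all lay below 0 on the deposited scale, with a median of -0.45, and 2 of them were above 0 with the length trend removed, as were 2 after centring. None (0) of the 5 was called. Ptger2, a receptor for prostaglandin E2 and the most abundant of the 5, had 14.05 FPKM (Per2-vector label) and 14.1 FPKM (control label), a log2 ratio of -0.0053 that was 0.18 after centring and 0.32 with the length trend removed. It was named after its values were seen. Ptger1, another receptor for prostaglandin E2, had 4.43 FPKM (Per2-vector label) and 7.93 FPKM (control label). Ptger4, also a receptor for it, had 2.99 FPKM (Per2-vector label) and 4.46 FPKM (control label). Ptger1 and Ptger4 lay below 0, short of 2-fold, on the deposited scale, after centring, after rescaling to TPM and with the length trend removed. Cmklr1, a receptor for chemerin and resolvin E1, had 4.83 FPKM (Per2-vector label) and 7.02 FPKM (control label). Ptgfrn, a negative regulator of the prostaglandin F receptor, had 10.5 FPKM (Per2-vector label) and 11.9 FPKM (control label). Its log2 ratio of -0.17 was 0.01 after centring and 0.27 with the length trend removed.

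Of 22 epoxygenase and epoxide hydrolase genes, 8 were measured and 0 were called, with a median of -0.23 that was 0.03 with the length trend removed. Ephx2, the soluble epoxide hydrolase, had 3.50 FPKM (Per2-vector label) and 5.97 FPKM (control label). Ephx1, the microsomal one, had 61.1 FPKM (Per2-vector label) and 73.4 FPKM (control label). Both hydrolases lay below 0 without a call. Cyp2j10 had 0.496 FPKM (Per2-vector label) and 1.52 FPKM (control label), and Cyp4f5 had 0.769 FPKM (Per2-vector label) and 1.56 FPKM (control label). The last 2 belong to families of similar genes whose reads could be shared, so their values are uncertain.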

How the data were processed

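The authors deposited 1 table of FPKM values, with 1 column for each library. The submitters' processing notes name HISAT2, StringTie, DESeq2, edgeR and the rat build Rnor_6.0, without versions, order or parameters. Per the labels' protocols, poly(A) RNA was fragmented and primed with random hexamers. FPKM keeps no depth that could be recovered, so no counting interval or floor is given. FPKM summed to 760286 in the Per2-vector-labelled library and 659696 in the control-labelled library.

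Columns were matched to samples by library name. The log2 ratio was log2((FPKM, Per2-vector label + 1)/(FPKM, control label + 1)), which understates differences of low genes, over rows with a mean of at least 1 FPKM. A call needed 2-fold on this scale in either direction. Transcript lengths were the longest coding transcript (or that of a polymorphic pseudogene) of the mouse gene of the same symbol in GENCODE M21, found for 82.0% of rows compared and for all 10 members. The trend was removed as residuals of a lowess fit (statsmodels 0.14.6, span 0.3), which also recentres the ratios. The removal of the trend was tested on simulated data with a planted trend, over genes averaging at least 5 FPKM. That test does not bear on whether the calls made here would repeat. Alternatives are given in the closing section. Named genes outside the 10 were the up to 4 measured genes of each list with the largest ratio in size. A result for 1 further gene is not reported here, and its list is given without it. Members and lists were chosen with earlier results of these data known. No sequence is printed, since the reference at hand is mouse and the gene identifiers are rat.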

Additional observations from a re-analysis of the deposited data

How the results depend on the processing

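No paired analysis was possible because each group holds 1 library, and for the same reason no replicate could be left out. The log2 ratios of the 10 genes were recomputed under 10 alternatives (9 for Alox5, which fails a filter of 5 FPKM). Of these, 2 were chosen with the data already seen, namely the median in place of the longest transcript length and a restriction to the rows with a mouse length, with the trend kept. Pla2g2a was called higher throughout, with log2 ratios between 2.43 and 3.46, and Alox5ap was called lower throughout, between -1.56 and -1.13. Ptges lay between 0.62 and 1.20 and was called under centring and under both length corrections, which gave 2 members called higher instead of 1. Ptgs2, Hpgds and Alox5 crossed 0 under at least 1 alternative. The median of the members was -0.53 after rescaling to TPM, -0.14 after centring, -0.051 with the length trend removed and -0.059 with the median length. The 271 genes called higher and 733 called lower overall became 413 and 1304 with a pseudocount of 0.1, 120 and 164 with a pseudocount of 5, 521 and 442 after centring, 138 and 243 with the length trend removed, and 151 and 289 with the median length. The length corrections also drop the rows without a length: among the 10139 rows with one, 120 were called higher and 539 lower before any correction. Of the genes averaging 5 FPKM or more, 366 were called lower, and after rescaling to TPM 1400 were. Depth is unknown, so its limits on low genes such as Alox5, at under 2 FPKM, were not estimated.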
